A study of Mus musculus with 6 samples.

Results

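The interleukin-1 family genes described here are 10 genes of 1 signalling system, namely the cytokines Il1a, Il1b, Il18 and Il33, the antagonist Il1rn, the receptors Il1r1, Il1r2, Il1rap and Il1rl1, and the protease Casp1. They were found as every probe set whose platform annotation names exactly 1 of these symbols, which gave 16 probe sets for 9 genes, out of 34958 probe sets and 18194 genes with a single symbol. Il1rl1 had no such probe set and was not analysed here. The values come from mammary glands of 3 Rac1-/- and 3 WT mice at involution day 2, with 1 array per mouse. The Rac1-/- mice were Rac1 fx/fx with the RosaYFP reporter and WAPiCre Tg/•, and the WT mice were Rac1 fx/fx with the same reporter and no Cre, so that both groups carried the floxed alleles and only the Rac1-/- group carried the transgene. Cre was driven by the whey acidic protein promoter, which is active in luminal epithelial cells, and the other cells of the gland kept Rac1. The groups were age matched and the RNA came from the whole inguinal gland, so that fewer cells of a type and less RNA per cell cannot be told apart in any value below.

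Interleukin-1 alpha and beta are made in response to tissue damage and microbial products, and both act through the receptor Il1r1 with the accessory chain Il1rap to switch on inflammatory genes such as neutrophil attractants. The pathway is held back by Il1rn, a ligand that occupies the receptor without signalling, and by Il1r2, a decoy receptor that binds the cytokines without passing on a signal. Casp1 cuts the inactive forms of Il1b and Il18 after an inflammasome has assembled, while Il33 is stored in nuclei and released when cells die. In the involuting gland many epithelial cells die, and inflammatory cells enter the tissue to clear them.

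The promoters of the genes with the largest differences or with separate groups are shown because Il1a, Il1b and Il1rn lie on 1 chromosome and Il1r1 and Il1r2 are direct neighbours on another. Each line gives the 250 bases before a start site from the RefSeq table of GRCm38.p6, with matches to 4 searched motifs in capitals, where overlapping matches run together.
Il1a, chr2:129309973-129310222, minus strand: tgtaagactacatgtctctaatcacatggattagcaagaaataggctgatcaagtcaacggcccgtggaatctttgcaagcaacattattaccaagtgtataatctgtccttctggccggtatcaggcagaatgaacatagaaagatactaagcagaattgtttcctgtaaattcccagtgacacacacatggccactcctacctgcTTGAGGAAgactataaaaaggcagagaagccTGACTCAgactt
Il1b, chr2:129371140-129371389, minus strand: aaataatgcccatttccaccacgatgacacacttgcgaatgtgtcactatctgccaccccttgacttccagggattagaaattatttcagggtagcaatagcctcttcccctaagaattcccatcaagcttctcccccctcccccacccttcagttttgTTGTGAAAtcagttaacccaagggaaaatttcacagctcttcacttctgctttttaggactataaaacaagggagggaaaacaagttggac
Il1rn, upstream start, chr2:24336610-24336859, plus strand: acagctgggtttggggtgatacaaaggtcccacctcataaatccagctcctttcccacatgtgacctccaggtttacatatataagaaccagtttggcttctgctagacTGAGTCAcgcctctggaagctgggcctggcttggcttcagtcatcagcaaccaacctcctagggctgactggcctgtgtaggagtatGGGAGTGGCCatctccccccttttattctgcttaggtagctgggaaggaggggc
Il1rn, downstream start, chr2:24345121-24345370, plus strand: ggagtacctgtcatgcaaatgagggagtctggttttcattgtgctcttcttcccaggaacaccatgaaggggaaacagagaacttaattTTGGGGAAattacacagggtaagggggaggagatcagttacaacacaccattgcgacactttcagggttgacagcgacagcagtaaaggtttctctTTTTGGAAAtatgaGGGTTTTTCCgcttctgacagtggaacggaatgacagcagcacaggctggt
Il1r1, upstream start, chr1:40224830-40225079, plus strand: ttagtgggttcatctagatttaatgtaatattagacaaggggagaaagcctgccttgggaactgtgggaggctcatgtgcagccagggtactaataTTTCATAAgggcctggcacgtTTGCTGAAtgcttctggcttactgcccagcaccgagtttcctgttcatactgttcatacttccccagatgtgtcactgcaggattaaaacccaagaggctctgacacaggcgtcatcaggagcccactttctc
Il1r2, chr1:40085843-40086092, plus strand: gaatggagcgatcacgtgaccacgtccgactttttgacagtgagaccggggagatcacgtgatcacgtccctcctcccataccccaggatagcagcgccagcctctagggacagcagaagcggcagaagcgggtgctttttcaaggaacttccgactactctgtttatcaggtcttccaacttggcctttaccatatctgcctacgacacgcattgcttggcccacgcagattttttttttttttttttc
The motifs were a loose NF-kappaB site (GGG and CC with 5 bases between them), TGANTCA (AP-1), TTNNGNAA (a loose form of the C/EBP site) and CCAAT, each on both strands. All 10 genes had at least 1 promoter in the table, with 15 windows in all. The loose NF-kappaB site was found in 45.8% of all 32851 windows and in 5 of the 15 member windows. These belonged to 4 of the 10 genes and included both Il1rn starts shown. TGANTCA was found in 6.75% of all windows and in 2 of the 15, Il1a at 12 bases and Il1rn at 141 bases before the start. TTNNGNAA was found in 36.8% of all windows and in 10 of the 15, from 6 genes. CCAAT was found in 33.8% of all windows and in 5 of the 15, from 5 genes. Genes with several windows have more places for a match, so only the window counts compare with the shares. Windows can also overlap. A further Il1rn window, chr2:24345041-24345290, is not shown and overlaps the downstream one, so that the same TTGGGGAA counts in both. The window of Il1r2 held none of the 4 motifs, which says only that these letters are absent from this window.

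On these arrays the deposited values were linear intensities, scaled by the authors so that the trimmed mean was 100 on each array, and they were quantile normalized and taken to log2 for what follows. Median intensities ran from 56.0 to 88.0 on the Rac1-/- arrays and from 40.6 to 71.5 on the WT arrays, and the interquartile range in log2 ran from 1.23 to 1.98 and from 1.42 to 2.85. Along the leading principal component (44.0% of the variance) the scores were -50.7, 174 and 4.13 for the Rac1-/- mice Nas496, Nas497 and Nas518, against -113, -115 and 101 for the WT mice Nas478, Nas483 and Nas484. Nas497 and Nas484 thus lay at one end and Nas478 and Nas483 at the other, and Nas478 and Nas483 also had the widest interquartile ranges (2.85 and 2.42) and the most values below 1 (1151 and 548). For actin, the 3' minus 5' control signal in log2, which can bear on RNA quality, was from -1.24 to -0.30 on the Rac1-/- arrays and from -0.17 to 0.048 on the WT arrays, without overlap. The same difference for Gapdh was from -0.058 to 0.18 on the Rac1-/- arrays and from -0.037 to 0.16 on the WT arrays, with overlap. Whether the RNA of the groups differed in quality was not tested. Wap, the milk protein gene whose promoter drove Cre and a defining marker of secretory mammary tissue, had log2 intensities of 12.70, 12.30 and 11.84 in Rac1-/- glands and 15.06, 14.82 and 15.27 in WT glands. Rac1 had 9.51, 9.01 and 9.84 in Rac1-/- glands and 9.31, 9.50 and 8.97 in WT glands on its brightest probe set, and from 8.14 to 8.77 in Rac1-/- glands and from 8.74 to 9.89 in WT glands on another, and whether these lie in the deleted part is not known. A dim probe set of Rac1 reached the floor in 1 Rac1-/- mouse and is not compared.

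As a group, 6 of the 9 IL-1 family genes had a higher mean in Rac1-/- glands and 3 had a lower one, where 53.9% of all genes had a higher mean. The median log2 fold change, always Rac1-/- minus WT, was 0.28 over the 9 genes and 0.060 over all 18194 genes. In limma with Benjamini-Hochberg adjustment 0 of the 9 genes passed an adjusted p of 0.05, and 0% of all genes did. At an unadjusted p under 0.05, 3 of the 9 were higher (Il1rn, Il1r1 and Il1a) and 0 lower, where 2.23% of all genes were higher and 1.82% lower. Counted in either direction, 4.05% of all genes passed that threshold. Il1b and Il1r1 were separate upwards, with each Rac1-/- mouse above each WT mouse, as were 5.41% of all genes, and Il1r2 was separate downwards, as were 4.20%. Counted by probe set, 3 of the 16 were higher at an unadjusted p under 0.05 (2 of Il1rn and 1 of Il1r1) where 1.72% of all probe sets were, 3 were separate upwards where 4.27% were, and 1 was separate downwards where 5.34% were. Since the genes were chosen with earlier results of these data known, these counts describe the members and test nothing about the family. With arrays scaled to a common median instead, 2 of the 9 (Il1a and Il1rn) were higher at that unadjusted threshold, and 42.2% of the genes past it in the whole table were higher, against 55.0% with quantile normalization and 78.5% with no normalization between arrays. With a common median the members' median was 0.46, while that of all genes moved to -0.12.

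**Figure D1:**
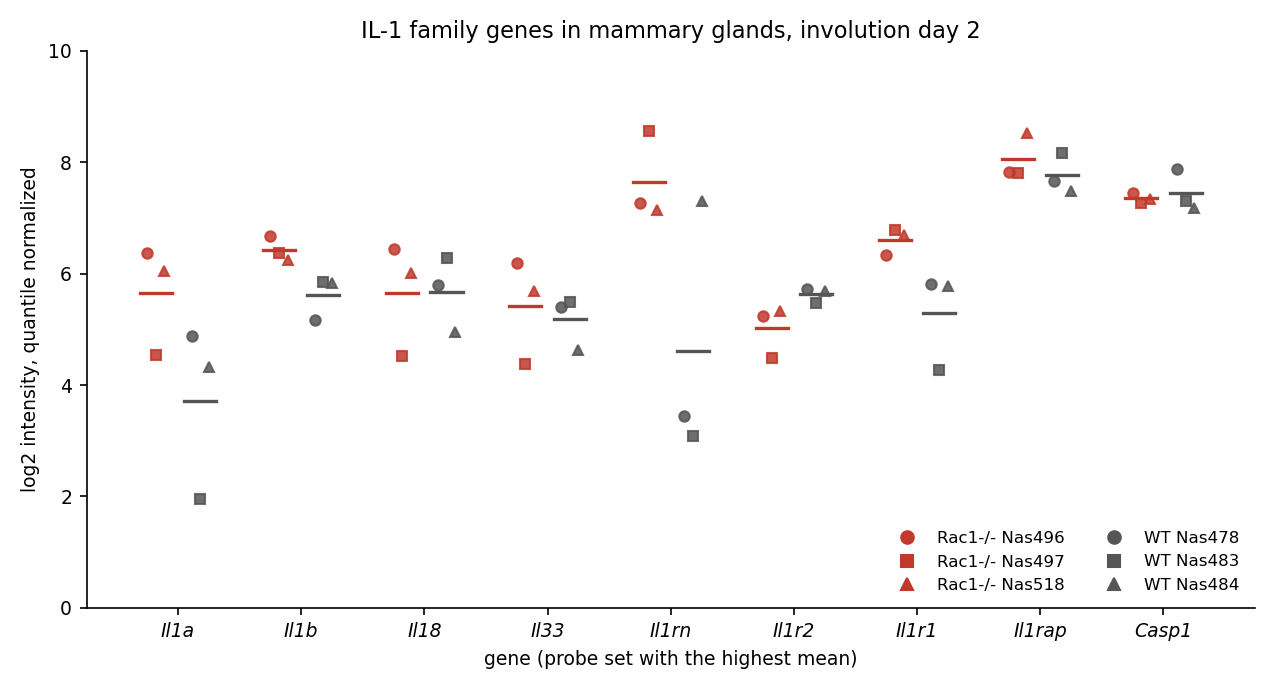
Quantile-normalized log2 intensity (vertical axis) of the 9 measured IL-1 family genes at involution day 2, with 3 Rac1-/- mice in red on the left and 3 WT mice in grey on the right of each gene. Each point is 1 mouse, with its own marker, and each bar the group mean. The groups are separate for Il1b, Il1r1 and Il1r2, and the WT mouse Nas484 lies among the Rac1-/- mice for Il1rn.

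Among the agonists, Il1a, a cytokine that is active without being cut and acts when released from damaged cells, had log2 intensities of 6.37, 4.54 and 6.05 in the Rac1-/- mice Nas496, Nas497 and Nas518, against 4.88, 1.95 and 4.32 in the WT mice Nas478, Nas483 and Nas484. Nas497 lay below the WT mouse Nas478, so the groups overlapped, and the WT mouse Nas483 was the lowest of all. They were separate upwards with a common median, where the difference was 2.61, and with no normalization between arrays, where it was 3.08 and the intensities were 77.3, 40.4 and 75.6 in Rac1-/- mice, against 10.9, 1.26 and 28.3 in WT mice. The log2 fold change was 1.94 (SE 0.83, 95% interval from 0.033 to 3.84, unadjusted p = 0.0470 and adjusted p = 0.946 from limma), with 5.65 ± 0.98 in Rac1-/- and 3.72 ± 1.55 in WT glands (SD, n = 3 each). It was 1.0 without Nas483 and 2.66 without Nas497. The signal of this probe set was dim, at percentile 1.95 of its own array in Nas483 and 62.7 in Nas496.

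Il1b, the agonist made mainly by activated macrophages and neutrophils, had 6.68, 6.37 and 6.24 in Rac1-/- mice, against 5.16, 5.85 and 5.84 in WT mice. Every Rac1-/- mouse lay above every WT mouse, and this also held with a common median and with no normalization between arrays. The means were 6.43 ± 0.22 in Rac1-/- and 5.61 ± 0.39 in WT glands (SD, n = 3 each), a log2 fold change of 0.81 (SE 0.44, 95% interval from -0.20 to 1.82, adjusted p = 0.946 from limma), or 1.76-fold. The interval holds 0, and the estimate was 0.54 without the WT mouse Nas478, the lowest of the 6.

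Il18, a cytokine that like Il1b needs cutting by Casp1, had 6.44, 4.51 and 6.02 in Rac1-/- mice, against 5.79, 6.28 and 4.95 in WT mice. Il33, a nuclear alarmin of epithelial, endothelial and stromal cells, had 6.20, 4.37 and 5.69 in Rac1-/- mice, against 5.41, 5.49 and 4.63 in WT mice. Both genes were lowest in Nas497 and next lowest in Nas484, which had the highest scores on the leading principal component, and over the 6 arrays the Pearson correlation of Il18 with Il33 was 0.96, the highest of the 36 pairs of members. The log2 fold change was -0.017 (SE 0.63, 95% interval from -1.46 to 1.42) for Il18 and 0.24 (SE 0.58, 95% interval from -1.09 to 1.57) for Il33. Neither sign was stable. Il18 ran from -0.41 without Nas496 to 0.60 without Nas497, and Il33 from -0.15 without Nas496 to 0.82 without Nas497. With the arrays of Nas484 and Nas497 both left out, Il18 was 0.23. Adjusting for actin 3' minus 5' gave 1.26 for Il18 and 1.38 for Il33.

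Of the inhibitors, Il1rn had the largest estimate of the family with the settings used here, although that of Il1a was larger under 5 of the alternatives, such as the mean of all probe sets (1.94 for Il1a and 1.80 for Il1rn) and actin 3' minus 5' as a covariate (2.90 and 1.50). On its probe set with the highest mean the log2 intensities were 7.26, 8.56 and 7.14 in Rac1-/- mice, against 3.44, 3.08 and 7.30 in WT mice. The values fell into a high level, with the 3 Rac1-/- mice and the WT mouse Nas484, and a low level with the WT mice Nas478 and Nas483, whose arrays had the widest interquartile ranges. In deposited intensities the probe set read 155, 235 and 140 in Rac1-/- mice, against 2.00, 2.50 and 149 in WT mice, and in Nas478 and Nas483 it lay at percentiles 6.61 and 5.07 of the array. The log2 fold change was 3.05 (SE 1.06, 95% interval from 0.63 to 5.47, unadjusted p = 0.0195 and adjusted p = 0.946 from limma), with 7.65 ± 0.78 in Rac1-/- and 4.61 ± 2.34 in WT glands (SD, n = 3 each). It was 4.59 without Nas484 and 2.17 without Nas483, and it was 1.50 with actin 3' minus 5' and 1.28 with the interquartile range of the array as a covariate.

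The other probe sets of Il1rn gave smaller estimates of the same sign. The next brightest had 5.87, 5.13 and 6.62 in Rac1-/- mice, against 4.62, 4.08 and 5.09 in WT mice, with separate groups and a log2 fold change of 1.28 (SE 0.55, unadjusted p = 0.0496 and adjusted p = 0.957 from limma over all probe sets). Here Nas484 lay just below the lowest Rac1-/- mouse. The dimmest had 4.78, 5.58 and 6.53 in Rac1-/- mice, against 3.70, 4.07 and 5.86 in WT mice, with overlapping groups and a log2 fold change of 1.09 (SE 0.72). All 3 probe sets had their 2 lowest values in the WT mice Nas478 and Nas483, and Nas484 was the highest WT mouse on each. The mean over the probe sets gave a log2 fold change of 1.80 for Il1rn.

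Il1r2, the decoy receptor, was the only member on which all Rac1-/- mice were lower than all WT mice, at 5.25, 4.48 and 5.32 in Rac1-/- mice, against 5.73, 5.46 and 5.69 in WT mice. The gap between the groups, from 5.32 to 5.46, was small beside the spread of the Rac1-/- mice, of which Nas497 was the lowest. The means were 5.01 ± 0.47 in Rac1-/- and 5.63 ± 0.14 in WT glands (SD, n = 3 each), a log2 fold change of -0.61 (SE 0.45, 95% interval from -1.64 to 0.41, adjusted p = 0.946 from limma). The groups overlapped with a common median, where it was -0.42, and with no normalization between arrays, where it was 0.055, and it was -0.089 with actin 3' minus 5' as a covariate.

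Of the signalling chains, Il1r1, which binds both agonists and the antagonist, had 6.34, 6.79 and 6.70 in Rac1-/- mice, against 5.82, 4.26 and 5.78 in WT mice. Every Rac1-/- mouse lay above every WT mouse, and this also held with a common median and with no normalization between arrays. The means were 6.61 ± 0.24 in Rac1-/- and 5.29 ± 0.89 in WT glands (SD, n = 3 each), a log2 fold change of 1.32 (SE 0.55, 95% interval from 0.077 to 2.57, unadjusted p = 0.0399 and adjusted p = 0.946 from limma), or 2.50-fold. The WT mouse Nas483 carried part of this size, and the estimate was 0.76 without it. The other probe set of Il1r1 was at the floor on 4 arrays, 3 Rac1-/- and 1 WT, and is not compared, and because it enters the mean over probe sets, that setting gave 0.22.

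Il1rap, the accessory chain that Il1r1 and the receptor of Il33 share, had 5 probe sets with unlike estimates. The brightest had 7.83, 7.81 and 8.52 in Rac1-/- mice, against 7.66, 8.17 and 7.49 in WT mice, and a log2 fold change of 0.28 (SE 0.46, 95% interval from -0.76 to 1.33). The other estimates were -0.52 (SE 0.56), 0.021 (SE 0.59), 1.40 (SE 0.64) and 0.26 (SE 0.80), and the groups overlapped on all 5. On the probe set with 1.40 the values were 5.98, 6.79 and 5.38 in Rac1-/- mice, against 3.74, 4.56 and 5.66 in WT mice, and again Nas484 was the WT mouse within the Rac1-/- range. With a common median the brightest turned to -0.46.

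Casp1, the protease, had 7.45, 7.27 and 7.34 in Rac1-/- mice, against 7.88, 7.30 and 7.17 in WT mice. The Rac1-/- mice spanned a narrow range that lay inside that of the WT mice. The means were 7.35 ± 0.094 in Rac1-/- and 7.45 ± 0.38 in WT glands (SD, n = 3 each), a log2 fold change of -0.098 (SE 0.43, 95% interval from -1.09 to 0.89), or 0.11 without the WT mouse Nas478. The interval allows a change of about 1 on the log2 scale either way.

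**Figure D2:**
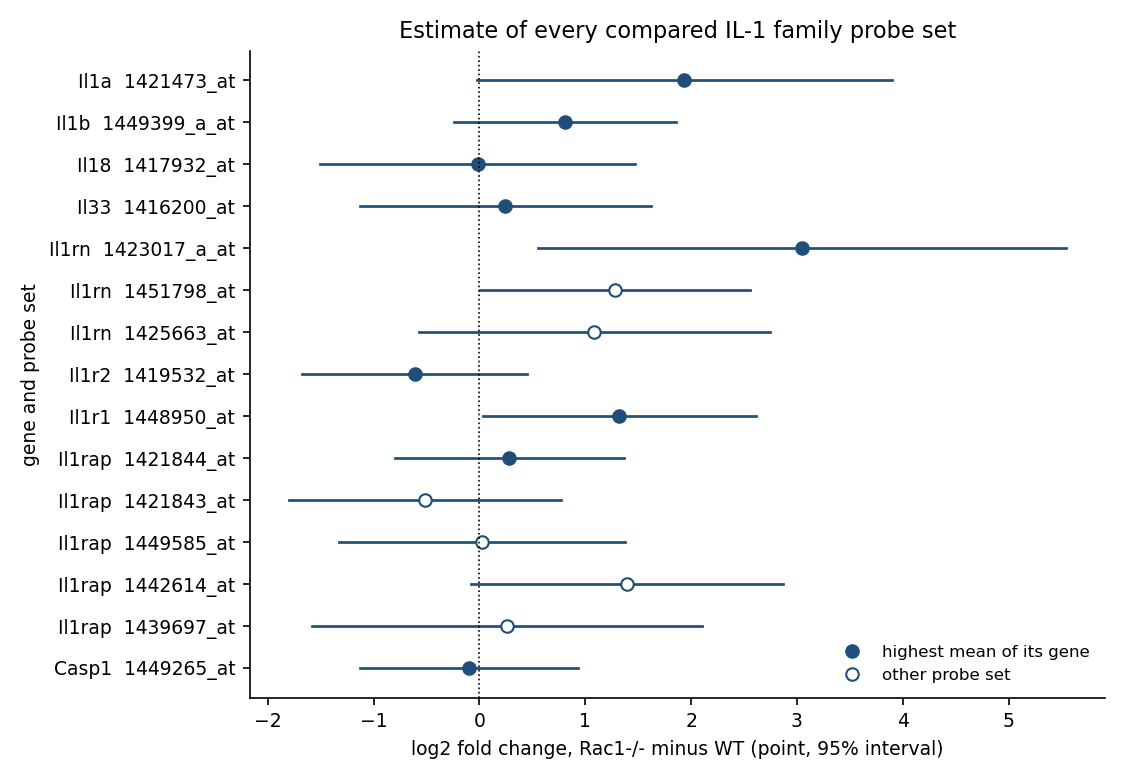
Log2 fold change, Rac1-/- minus WT (horizontal axis), of 15 IL-1 family probe sets, 1 row each, with n = 3 mice per group. Points are limma estimates from the fit of all probe sets and bars 95% intervals, filled points mark the probe set with the highest mean of its gene, and the Il1r1 probe set at the floor is left out. The estimates run from -0.61 for Il1r2 to 3.05 for Il1rn, and the interval lies to the right of 0 for 3 probe sets, of Il1rn (3.05 and 1.28) and Il1r1 (1.32).

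Antagonist and agonist, and decoy and signalling receptor, were set against each other within each array, where a scaling of the array cancels. Quantile normalization is not such a scaling and does not cancel. Il1rn minus Il1b was 0.59, 2.19 and 0.90 in Rac1-/- mice, against -1.73, -2.76 and 1.46 in WT mice, a difference of 2.23 between the group means (exact two-sided permutation p = 0.3). Nas484 again lay among the Rac1-/- mice, and the difference was 3.62 without it and 1.29 without Nas483. Averaging the probe sets of each gene gave 0.99. With a common median and without normalization between arrays the difference of Il1rn minus Il1b was 2.82 (exact permutation p = 0.4 in both). Il1r2 minus Il1r1 was -1.09, -2.31 and -1.38 in Rac1-/- mice, against -0.095, 1.20 and -0.083 in WT mice, a difference of -1.94 with separate groups. Its exact two-sided permutation p was 0.1, the smallest that 3 mice against 3 allow. The difference stayed separate with a common median and without normalization between arrays (-1.95 in both, exact permutation p = 0.1), while with the mean of all probe sets it was -0.83 (exact permutation p = 0.3). The direction of a log2 difference between probe sets is comparable between groups, but its sign within a group is not a comparison of transcript levels.

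In the genome Il1r2 and Il1r1 are neighbours in a run of 6 receptor genes that goes on with Il1rl2, Il1rl1, Il18r1 and Il18rap. Il18rap, the accessory chain of the Il18 receptor, ran from 6.45 to 6.64 in Rac1-/- mice and from 5.32 to 6.23 in WT mice, with separate groups and a log2 fold change of 0.70 (SE 0.45). Il1rl2, the receptor of the interleukin-36 cytokines, had 0.80 (SE 0.51) and Il18r1 had 0.48 (SE 0.44), with overlapping groups. Of the 5 measured genes of this run, Il1r2 was thus the only one with a lower mean in Rac1-/- glands.

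**Figure D3:**
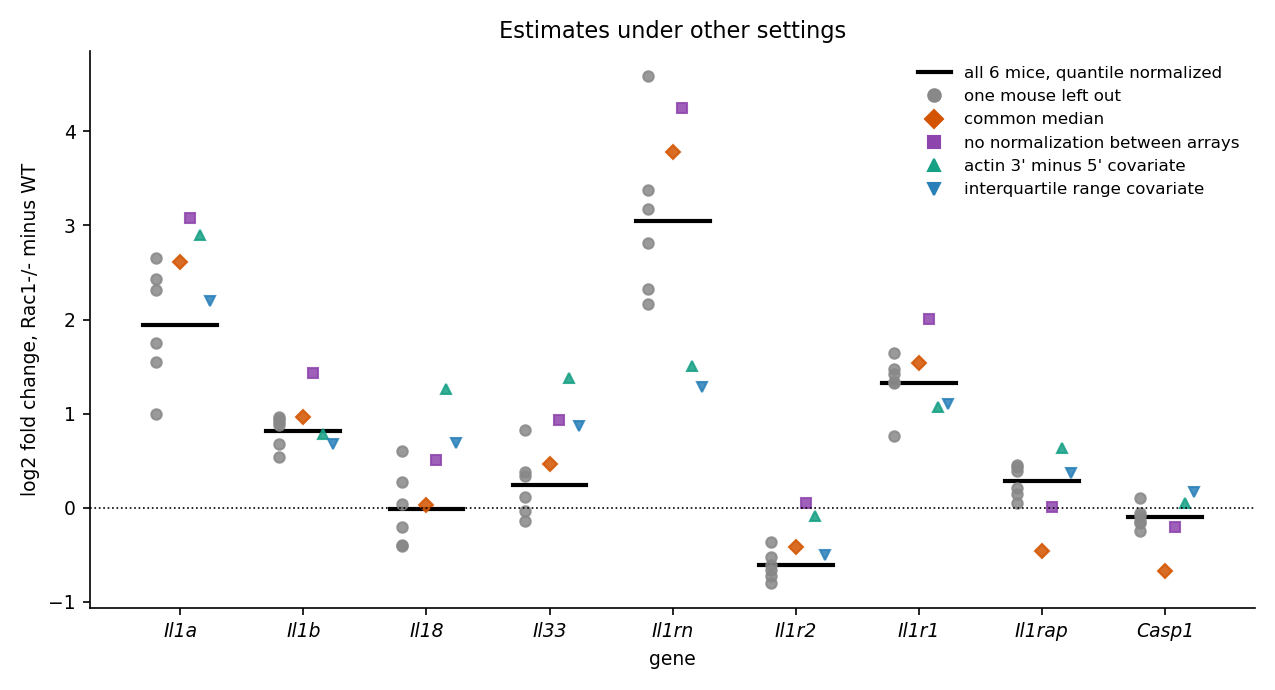
Log2 fold change, Rac1-/- minus WT (vertical axis), of each IL-1 family gene with all 6 mice and quantile normalization (black bar), with 1 mouse left out (grey), and under another scaling or with a covariate (coloured). Il1a, Il1b, Il1rn and Il1r1 stay above 0 under all settings drawn, while Il18, Il33, Il1r2, Il1rap and Casp1 cross it.

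The other genes of the pathway were taken from lists. Of 20 measured genes that carry the signal from the receptor to NF-kappaB, 9 had a higher and 11 a lower mean in Rac1-/- glands, the median difference being -0.045, and 0 passed the adjusted or the unadjusted threshold. Those with the smallest p were Ikbkg, the regulatory subunit of the IkappaB kinase, with 0.84 (SE 0.54), and Irak3, an inhibitor of the receptor complex, with 0.60 (SE 0.50) and separate groups. Of 13 genes of inflammasomes and cytokine processing, 6 had a higher and 7 a lower mean, with a median of -0.025. Txnip, a thioredoxin inhibitor that binds Nlrp3, had 9.22, 10.37 and 10.03 in Rac1-/- mice, against 10.84, 11.21 and 11.96 in WT mice, with a log2 fold change of -1.46 (SE 0.52, unadjusted p = 0.0218 from limma). Nlrp3, the sensor of the best-known inflammasome, had 6.44, 4.94 and 7.11 in Rac1-/- mice, against 4.42, 4.87 and 5.65 in WT mice, with a log2 fold change of 1.18 (SE 0.65). Of 11 further ligands and receptors of the family, 7 had a higher and 4 a lower mean, and 0 passed either threshold. Il1f9, the gene of interleukin-36 gamma, had 6.71, 7.69 and 7.49 in Rac1-/- mice, against 8.11, 8.05 and 8.62 in WT mice, with separate groups and a log2 fold change of -0.96 (SE 0.47). Il1rapl2, an orphan receptor of the family, had 0.82 (SE 0.45), also with separate groups.

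Genes that interleukin-1 is known to induce had 14 of 18 means higher in Rac1-/- glands, beside 53.9% of all genes, and a median difference of 0.73, beside 0.060 over all genes. Their mean level was separate between the groups, from 6.26 to 6.54 in Rac1-/- mice and from 5.28 to 6.04 in WT mice, while the log2 of their summed intensity overlapped, from 13.87 to 14.44 and from 13.97 to 15.26. That sum follows its brightest member, Lcn2, an iron-scavenging protein of epithelium and neutrophils, which alone had from 13.71 to 14.28 in Rac1-/- mice and from 13.71 to 15.19 in WT mice. At an unadjusted p under 0.05, 4 were higher (Cxcl1, Ccl2, Cxcl2 and Il6, the last with a WT value at the floor) and 1 lower (Saa3), beside 2.23% and 1.82% of all genes, and 0 passed the adjusted threshold. Cxcl1, a neutrophil attractant, had 8.23, 8.18 and 8.56 in Rac1-/- mice, against 5.77, 6.67 and 6.25 in WT mice, a log2 fold change of 2.09 (SE 0.45). Ccl2, a monocyte attractant, had 7.99, 7.44 and 7.94 in Rac1-/- mice, against 5.70, 6.25 and 6.35 in WT mice, a log2 fold change of 1.69 (SE 0.45). In both, Nas484 lay with the other WT mice and not, as for Il1rn, among the Rac1-/- mice. Saa3, an acute phase gene, was the lower one at that threshold, with 9.08, 6.98 and 8.82 in Rac1-/- mice, against 10.69, 10.71 and 9.31 in WT mice, a log2 fold change of -1.94 (SE 0.69). The attractants did not all lie one way. Cxcl5, another neutrophil attractant of the list, had 2.81, 4.19 and 4.25 in Rac1-/- mice, against 4.88, 5.42 and 4.65 in WT mice. Its groups were separate downwards, with a log2 fold change of -1.23 (SE 0.54). For Cxcl1 the size rests on the probe set, since 0.51 (SE 0.68) and 1.37 (SE 1.06) were found on its others, where the groups overlapped. Of the 18 genes, 4 (Cxcl1, Ccl2, Cxcl2 and Ccl20) are in a list that the study drew from these samples. No independent evidence of direction comes from these 4, nor from the counts, the median difference or the separate mean level of the 18, which include them. Cxcl2 was also dim, with 7.15, 5.12 and 5.88 in Rac1-/- mice, against 4.70, 1.45 and 1.83 in WT mice.

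Markers of the cells that make or receive these cytokines were set beside these values. The mean log2 level of 12 neutrophil markers was from 6.43 to 6.70 in Rac1-/- mice and from 5.91 to 6.26 in WT mice, without overlap, with 8 of 12 means higher, while the log2 of their summed intensity was from 13.25 to 13.65 and from 12.87 to 13.60, with overlap. That sum follows Ltf, the gene of lactoferrin, which milk also contains and which alone had from 13.10 to 13.56 in Rac1-/- mice and from 12.71 to 13.51 in WT mice. Fpr2, a formyl peptide receptor, was at 1.63 (SE 0.45) and the lectin receptor Clec4d at 2.20 (SE 0.57), whereas S100a8, an abundant neutrophil gene, had -0.096 and Csf3r, the receptor of the neutrophil growth factor, had 0.54. For 14 macrophage markers, 12 with higher means, the mean level was from 7.68 to 8.58 in Rac1-/- mice and from 7.34 to 7.87 in WT mice, with overlap, and the summed level was from 11.96 to 13.15 and from 11.42 to 12.35. Of these Ctss had 1.28 (SE 0.72) and Lyz2 had 0.82 (SE 0.47). The WT mouse Nas484, with its high Il1rn, had the lowest mean level of macrophage markers of the 6 mice. For 10 luminal epithelial markers the mean level was from 10.40 to 10.96 in Rac1-/- mice and from 11.05 to 11.31 in WT mice, without overlap, and the summed level was from 15.24 to 15.63 and from 16.58 to 17.07. The list was split, with 6 of 10 means lower and 4 higher. The genes of milk proteins and their regulator were separate downwards, with -2.77 (SE 0.45) for Wap, -2.07 (SE 0.52) for Lalba, which encodes alpha-lactalbumin, -1.45 (SE 0.47) for the transcription factor Elf5 and -0.86 (SE 0.42) for the casein gene Csn2. The paper lists these 4 genes as lower in its Rac1-/- arrays, without giving the stage of those arrays. Their direction, and the separate mean and summed levels that include them, are therefore not taken as independent of that list. The keratin gene Krt18 at 0.90 (SE 0.43) and the tight junction gene Cldn3 at 0.93 (SE 0.47) were separate upwards, and Krt8 was at 0.87 (SE 0.57) with overlapping groups. The part of these cell types in the values of the IL-1 family was not tested.

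Among the other lists, the summed level of 10 mast cell markers was from 9.76 to 10.21 in Rac1-/- mice and from 9.48 to 9.72 in WT mice, that of 10 T and B cell markers from 10.04 to 10.16 and from 9.44 to 9.97, and that of 8 myoepithelial markers from 11.44 to 12.04 and from 10.88 to 11.27. These 3 did not overlap in the summed level, while the mean level of the T and B cell markers and of the myoepithelial markers and that of mast cell markers, from 6.24 to 6.43 and from 5.98 to 6.26, overlapped. In these lists Cma1 and Gata2 gave differences of 1.01 (SE 0.54) and 0.99 (SE 0.56), Ms4a1 and Cd8a had 0.86 (SE 0.59) and 0.86 (SE 0.53), and Acta2 and Mylk had 1.24 (SE 0.56) and 0.83 (SE 0.52). Not all members lay that way, since 4 of 10 mast cell markers (such as Tpsab1 at -0.84), 4 of 10 T and B cell markers (such as Cd4 at -0.66) and 3 of 8 myoepithelial markers (such as Cnn1 at -0.45) had lower means. The summed level overlapped for the markers of squamous epithelium, fibroblasts, endothelium, adipocytes and skeletal muscle. In the same order, the 2 with the smallest p had log2 fold changes of 1.25 and 0.92 (Krt14 and Sprr1a), -0.53 and -0.70 (Fap and Dpt), -0.59 and -0.50 (Tie1 and Cdh5), -0.81 and 0.66 (Pparg and Retn) and 0.68 and -1.11 (Actn3 and Acta1), none past an unadjusted p of 0.05. No marker gene of these lists was at the floor on any array.

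**Figure D4:**
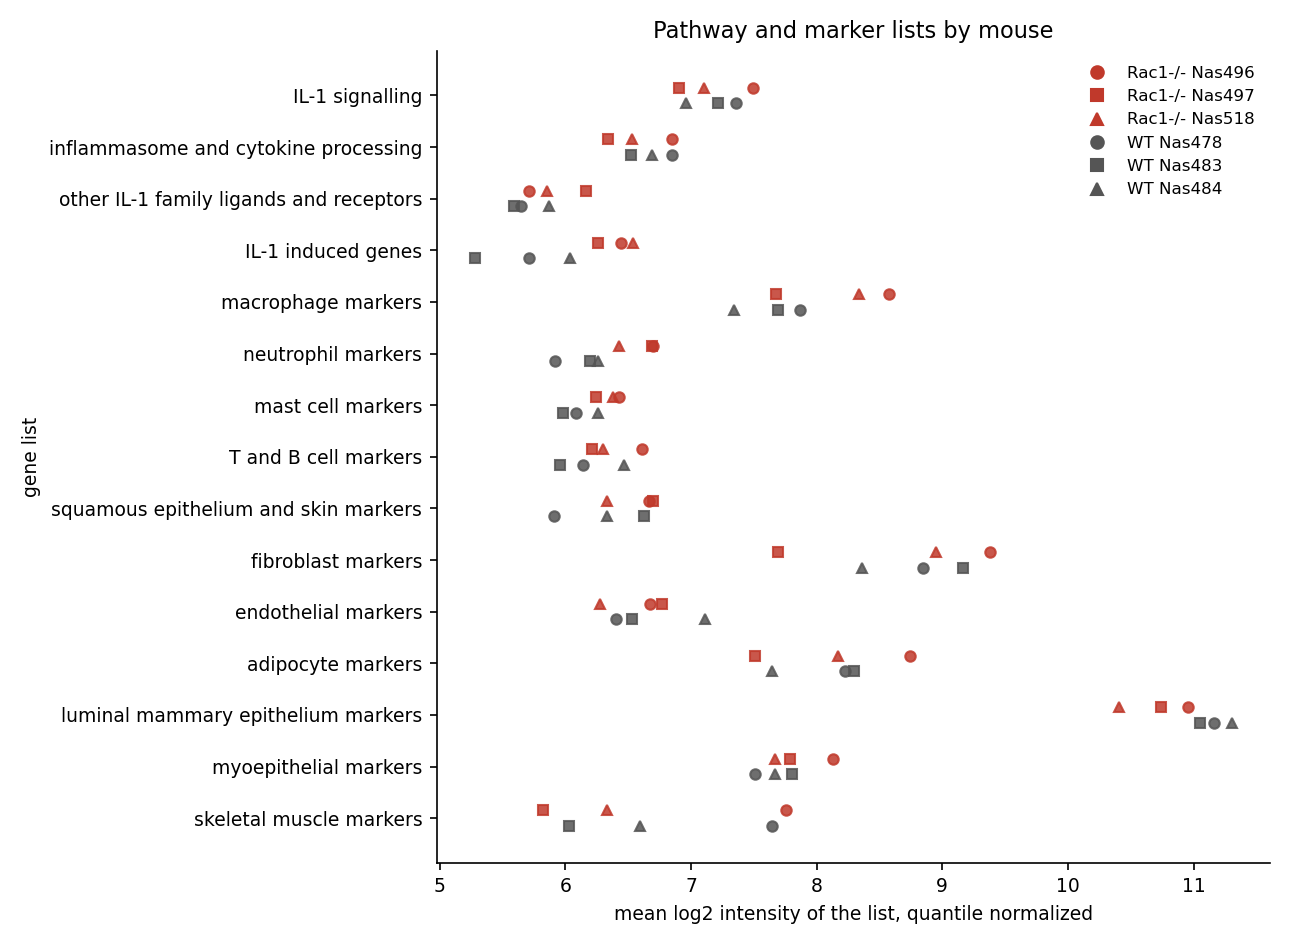
Mean quantile-normalized log2 intensity (horizontal axis) of 4 pathway lists and 11 marker lists (rows), with 3 Rac1-/- mice in red above 3 WT mice in grey, 1 point per mouse. The Rac1-/- mice are separate and higher for IL-1 induced genes (6.26 to 6.54 against 5.28 to 6.04). Of these 18 genes, 4 are in a list that the study drew from these samples. The Rac1-/- mice are also separate and higher for neutrophil markers, where Clec4d and Fpr2 had the smallest p and 4 of 12 means were lower. They are separate and lower for luminal epithelial markers, where Wap, Lalba, Elf5 and Csn2 were lower while Krt18 and Cldn3 were higher. The paper also lists Wap, Lalba, Elf5 and Csn2 as lower in its Rac1-/- arrays.

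Genes with a pattern most like those of 3 members were sought among 9097 genes above the median mean, by Pearson correlation over the 6 arrays, which share the array effects given above. Il1rn was followed most closely by Pir (r = 0.99), by Fcer1g, the shared signalling chain of Fc receptors on myeloid cells (r = 0.99), and by Slamf9, a surface receptor of myeloid cells (r = 0.98). Fcer1g had 9.15, 9.43 and 9.07 in Rac1-/- mice, against 7.52, 7.19 and 8.99 in WT mice, and thus showed the same high Nas484 and low Nas478 and Nas483 as Il1rn. Slamf9 had 7.40, 8.34 and 7.26 in Rac1-/- mice, against 5.61, 5.77 and 7.77 in WT mice. The closest genes to Il1b were Tbcel (r = 0.98), Hgh1 (r = 0.97) and Lurap1l (r = 0.97), and to Il1a Trbv1 (r = 0.97), Mrpl42 (r = 0.97) and Nde1 (r = 0.96). With 6 arrays and 9097 genes such values describe these arrays only.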

How the data were processed

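RNA of 1 inguinal gland per mouse was amplified with the Affymetrix Sensation kit, which the paper describes as made for small amounts of low-quality RNA. It was hybridized to Affymetrix mouse arrays, and the authors deposited 1 linear intensity for each of 45101 probe sets. The summary method is not given in the sources used here. The trimmed mean without the outer 2% was 100 on every array and no pair of arrays was identical (0 pairs), so the intensities were scaled array by array. The 3 mice of a group are separate animals. Depth cannot be given as counts, and the number of arrays limits the precision.

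Quantile normalization was done with limma 3.58.1 under R 4.3.3, and values were set to at least 1 (82 to 1151 values per array lay below 1) and taken to log2. Not used were 932 probe sets naming several genes and 9211 naming none. Each of 18194 genes took its probe set with the highest mean, without a filter on dim genes, and lmFit and eBayes gave the comparison, with p-values adjusted by Benjamini-Hochberg over all genes. Estimates of other probe sets come from the same model over 34958 probe sets. Of the symbols, 34754 were checked by Entrez ID against RefSeq of GRCm38.p6, and 4 list genes were found under older symbols. The script was tested on simulated data. The named genes are the 10 members, the 2 genes of each list with the smallest p, the 3 genes most correlated with Il1a, Il1b and Il1rn, and Rac1. Il1rl2, Il18r1, Il18rap, Cxcl2, Cxcl5, Ccl20, Il6, Saa3, Lcn2, S100a8, Csf3r, Ltf, Elf5, Csn2, Krt18, Krt8, Cldn3, Tpsab1, Cd4 and Cnn1 were named after their values were seen. The members and lists were chosen with earlier results of these data known. No protein sequences were used here.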

Additional observations from a re-analysis of the deposited data

How the results depend on the processing

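The count of IL-1 family genes and of all genes past an adjusted p of 0.05 was 0 with quantile normalization and all 6 mice and under every alternative run, with a smallest adjusted p of 0.220, for Il1rn without Nas484, over the members. At an unadjusted p under 0.05 the members counted from 0 to 3 higher and 0 lower. With a common median Il18 was 0.033 and Il1rap -0.46. With no normalization between arrays Il18 was 0.51 and Il1r2 0.055, and with array weights Il18 was 0.041. Without the arrays of Nas484 and Nas497 Il18 was 0.23. With actin 3' minus 5' as a covariate Il18 was 1.26 and Casp1 0.054, and with the interquartile range Il18 was 0.69 and Casp1 0.16. Leaving out 1 mouse moved Il18 from -0.41 to 0.60, Il33 from -0.15 to 0.82 and Casp1 from -0.24 to 0.11. The cause was not tested. The other values kept their sign, among them Il1a (1.0 to 3.20), Il1b (0.54 to 1.43), Il1rn (1.28 to 4.68) and Il1r1 (0.22 to 2.01). Over genes above the median mean, Il1rap and Casp1 were the 2 members kept. Il1b was not measured when probe sets with names ending in _x_at, _s_at or _a_at were left out. No paired analysis was run because the mice are separate animals and no pairing between the groups is stated. The arrays hold no detection calls here, so the dim values, such as those of Il1a and Il1rn in Nas483, have no measured background.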
